A study of Zea mays with 6 samples.

Results

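The SVP-class MADS-box genes of the early maize ear are described here by 4 genes out of the 42508 in the deposited table: Zm00004b022967, Zm00004b015192 and Zm00004b031581, whose best protein match is rice MADS-box transcription factor 55, and Zm00004b000584, whose best match is rice MADS-box transcription factor 47. They were chosen by this annotation and with their counts in lines A12 and B46 already known, so every value of theirs that sets A12 against B46 is a description of these libraries, given without a test. A search of the annotation for the rice factors 22, 47 and 55 found 5 genes. The fifth, Zm00004b002443 on chromosome 1, matched factor 47, had 0 reads in all 6 libraries and could not be studied. All 4 listed genes passed the filter on low counts.

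A12 and B46 are nearly isogenic recombinant inbred lines whose parents were maize and its wild ancestor, teosinte (Zea mays ssp. parviglumis), stated to differ in a segment of chromosome 5. A12 carries the teosinte version of the kernel row number locus qKRN5.04b on chromosome 5, and B46 carries the maize version. Both were grown under standard conditions without a treatment, and immature ears of 1.5 to 2.0 mm were dissected from plants with 6 to 9 leaves, at the inflorescence meristem to paired spikelet meristem stage. Each line has 3 libraries of polyadenylated RNA, each from a pool of at least 50 ears and all of 1 stated batch. Since 1 line stands for each version of the locus, the locus and any other difference between the lines cannot be told apart.

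SVP-class proteins are MIKC-type MADS-box transcription factors: a MADS domain binds DNA, and a K-box helps them pair with other MADS-box proteins. In Arabidopsis, SVP (Short Vegetative Phase) delays flowering by repressing FT and SOC1, and in young floral meristems it helps to keep floral organ identity genes, among them SEPALLATA3, from being switched on too early. In rice, MADS22, MADS47 and MADS55 were described as negative regulators of brassinosteroid responses, and in maize an SVP-class gene expressed in the wrong place underlies pod corn, in which glumes enclose the kernels.

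The 4 genes lie on 4 chromosomes, in the coordinates of the deposited table, whose genome build the available sources do not name. Zm00004b022967 runs from 187990885 to 187997064 on the minus strand of chromosome 4, with 995 bases of counted length in a span of 6180 bases. Zm00004b015192 runs from 213659134 to 213666557 on the plus strand of chromosome 5, with 1141 counted bases in 7424. Zm00004b031581 runs from 6920107 to 6931722 on the minus strand of chromosome 9, with 657 counted bases in 11616. Zm00004b000584 runs from 19268857 to 19290705 on the minus strand of chromosome 1, with 2236 counted bases in 21849. All 4 models carry the MADS (SRF-type) domain annotation. A K-box is annotated in the 3 that match factor 55 and not in Zm00004b000584, whose place in the SVP class rests here on its best match alone. No other gene of the table overlaps any of the 4.

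Libraries held 14625831 to 15675012 gene counts, and no pair within a line agreed within sampling noise. KNOTTED 1 (Zm00004b005000), which marks meristem tissue as labelled, had 4203, 7847 and 6995 reads in A12 replicates 1, 2 and 3, against 8473, 8210 and 6875 in B46. One library of each line stood apart in the sum of the MADS-box lists taken to mark differentiating florets. A12 replicate 1 was the highest and B46 replicate 3 the lowest of the 6, with the values given below. In B46 that sum came mainly from MADS34 matches. Of 22741 genes tested with edgeR, 2242 were called at an adjusted p under 0.05. That count depended on single libraries, at 4446 without A12 replicate 1, 401 without A12 replicate 3, 714 without B46 replicate 1, 432 without B46 replicate 2 and 1410 without B46 replicate 3.

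All 4 SVP-class genes were far less abundant in A12 than in B46, and 3 of them had only 9 to 57 reads in each A12 library. CPM, counts per 1000000 after TMM scaling, were lower in each of the 3 A12 libraries than in every B46 library for all 4 genes, a separation that 17.2% of the 22741 tested genes showed in that direction and 33.4% in either. All 4 were among the genes called, where 9.86% of tested genes were called 5.25% lower and 4.61% higher in A12. Nothing is read from these counts, because the genes were chosen with this contrast known. Without A12 replicate 3 or without B46 replicate 2, 3 of the 4 were called and Zm00004b031581 was not. As in any bulk sample, fewer cells expressing a gene and less RNA per cell cannot be told apart.

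Zm00004b022967, the most abundant of the 4 in B46, had 39, 30 and 39 reads in A12 replicates 1, 2 and 3, against 1377, 1549 and 2715 reads in B46 replicates 1, 2 and 3. The A12 libraries were alike, while B46 replicate 3 stood well above the other B46 libraries. CPM averaged 2.43 ± 0.300 in A12 and 121 ± 46.9 in B46 (SD, n = 3 each), so that the A12 mean was 2.00% of the B46 mean. The fitted log2 fold change, A12 minus B46, was -5.64 (SE 0.32), and even the lowest B46 library was 33.9 times the highest A12 library.

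Zm00004b015192, the second match to rice factor 55, had 9, 36 and 20 reads in A12, against 723, 873 and 1431 reads in B46. Its A12 libraries differed beyond counting error: the exact 95% Poisson interval was 4.12 to 17.1 reads for replicate 1 and 25.2 to 49.8 reads for replicate 2, intervals that cover counting error only. CPM averaged 1.47 ± 0.958 in A12 and 65.1 ± 24.0 in B46 (SD, n = 3 each). The log2 fold change was -5.47 (SE 0.46), and it was -6.07 without A12 replicate 2. This gene is the only 1 of the 4 on chromosome 5, the chromosome of qKRN5.04b.

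Zm00004b000584, the match to rice factor 47, had 57, 35 and 39 reads in A12, against 735, 1050 and 3062 reads in B46. Here the spread lay in B46, where replicate 3 had 4.11 times the CPM of replicate 1. CPM averaged 2.95 ± 0.811 in A12 and 104 ± 81.5 in B46 (SD, n = 3 each). The log2 fold change of -5.14 (SE 0.62) rested in part on B46 replicate 3, and was -4.28 without it. Replicates 1 and 2 of B46 were still more than 12 times the highest A12 library, the lowest ratio being 12.4.

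Zm00004b031581, the third match to rice factor 55, was the exception in size. It had 108, 241 and 204 reads in A12, against 610, 695 and 772 reads in B46. CPM averaged 12.5 ± 4.75 in A12 and 44.7 ± 4.98 in B46 (SD, n = 3 each), so that the A12 mean was 27.9% of the B46 mean. The log2 fold change was -1.84 (SE 0.27), and the lowest B46 library was 2.38 times the highest A12 library. Of the 22741 tested genes, 359 had a log2 fold change at or below that of Zm00004b031581, whereas the other SVP-class genes stood at ranks 60, 63 and 70 from the lowest.

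**Figure D1:**
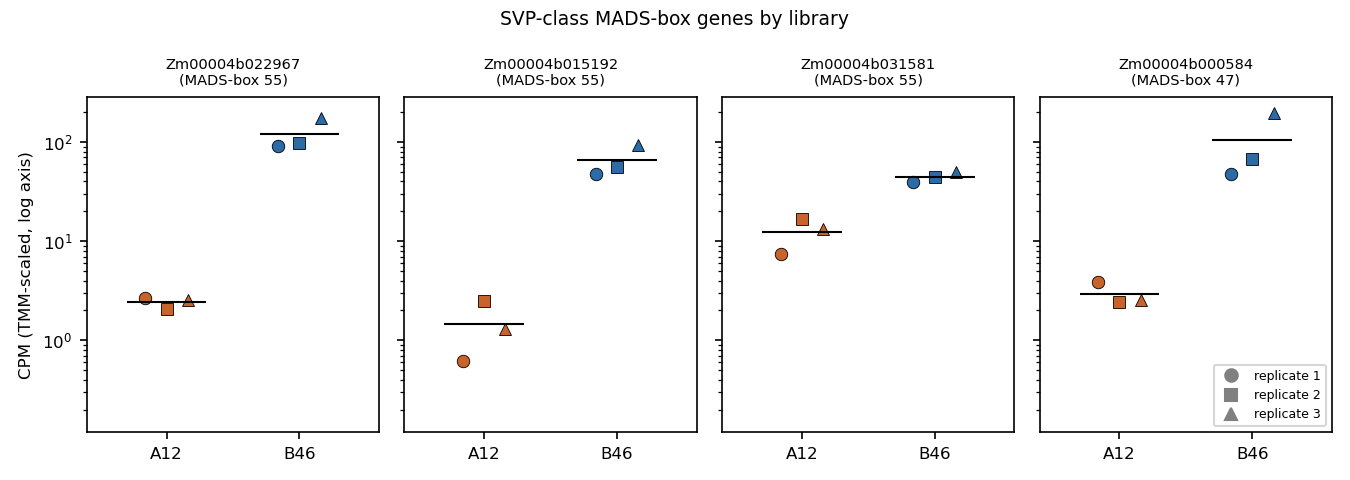
CPM (TMM-scaled, log axis) of each SVP-class gene in the 3 A12 libraries (left) and the 3 B46 libraries (right); marker shapes give the replicate and bars the mean. The A12 values lie below all B46 values in each panel, with the smallest gap for Zm00004b031581.

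Levels of different genes are compared here only per length, as the deposited FPKM. In A12, Zm00004b031581 came first with 11.2, 25.5 and 20.04 FPKM in replicates 1, 2 and 3, above all other members in every library. It was followed by Zm00004b022967 at 2.43 ± 0.303 FPKM (SD, n = 3), which was also apart from the next. The last places went to Zm00004b000584 at 1.32 ± 0.367 FPKM and Zm00004b015192 at 1.29 ± 0.838 FPKM in A12, which overlapped. In B46, the first place belonged to Zm00004b022967 with 90.4, 99.1 and 176 FPKM, above every value of the others. Below it in B46, Zm00004b031581 at 67.9 ± 7.55, Zm00004b015192 at 57.0 ± 20.97 and Zm00004b000584 at 46.5 ± 36.4 FPKM (SD, n = 3) overlapped with their neighbours in the order.

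The 4 genes together came to 16.2, 30.9 and 24.8 FPKM in A12 replicates 1, 2 and 3, against 214, 245 and 421 FPKM in B46. B46 thus held 12.2 times the A12 mean. Their make-up differed as well. Zm00004b031581 supplied 77.6 ± 7.15% of the sum in A12 and 24.6 ± 5.74% in B46, while Zm00004b022967 supplied 11.2 ± 4.95% in A12 and 41.5 ± 0.945% in B46 (SD, n = 3 each). Zm00004b015192 made up 5.00 ± 1.93% in A12 and 19.5 ± 0.350% in B46. In B46 the shares of Zm00004b022967 and Zm00004b015192 varied little between libraries although their levels were highest in replicate 3. The share of Zm00004b000584 varied more, with 10.8%, 3.52% and 4.53% in A12, against 10.04%, 12.2% and 20.98% in B46.

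**Figure D2:**
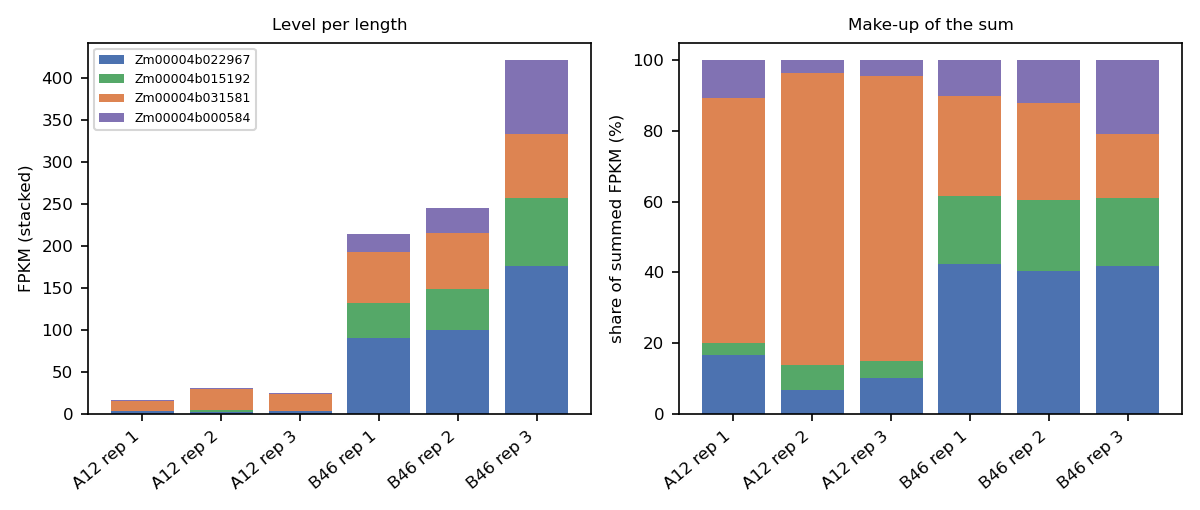
FPKM of the 4 SVP-class genes stacked per library (left panel) and their percent of the sum (right panel), A12 libraries before B46 libraries. Zm00004b031581 is the largest part of the sum in every A12 library and Zm00004b022967 in every B46 library.

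Ranked among the tested genes of a library, Zm00004b022967 exceeded 16.7% to 18.6% of genes by FPKM in A12 and 96.0% to 98.2% in B46. Zm00004b015192 exceeded 3.47% to 17.3% of genes in A12 and 88.0% to 95.3% in B46. For Zm00004b000584 the corresponding values were 8.22% to 12.7% in A12 and 73.0% to 95.9% in B46. Zm00004b031581 stayed in the upper part of the range in A12, at 52.0% to 77.1%, and stood at 93.0% to 94.8% in B46.

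Within B46 the SVP-class genes varied more between pools than most genes of like level. The coefficient of variation over the 3 B46 libraries was 78.2% for Zm00004b000584, 38.6% for Zm00004b022967 and 36.8% for Zm00004b015192. Over genes within 2-fold of each one's mean CPM, the median was 6.06% for Zm00004b000584, 5.97% for Zm00004b022967 and 6.50% for Zm00004b015192, and 98.7% to 99.8% of those genes varied less. Zm00004b031581 was steadier in B46 at 11.1%, beside a median of 7.07% for genes of like level, of which 75.7% varied less. In A12 the order changed, with 65.1% for Zm00004b015192, 38.2% for Zm00004b031581, 27.5% for Zm00004b000584 and 12.3% for Zm00004b022967. Among genes of like level in A12, 89.0% varied less than Zm00004b015192 and 91.2% less than Zm00004b031581, but only 16% less than Zm00004b022967.

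All 4 SVP-class genes were highest in B46 replicate 3, and all 4 were lowest in B46 replicate 1. The lists taken to mark differentiating florets were SEP, C/D, AGL6 and B together (34 genes, 10 of them at 0 reads in every library). Their summed CPM ran the other way in B46, at 156, 146 and 90.8 in replicates 1, 2 and 3. The SEP list supplied 129, 119 and 66.0 of it. There, most reads were of the MADS34 matches Zm00004b005154 (1193, 1086 and 809) and Zm00004b011239 (621, 555 and 158), neither of them called. The B46 order of the sum is thus mainly that of the MADS34 matches. In A12 the sum over the floret lists was 1293, 424 and 668 in replicates 1, 2 and 3. There, Zm00004b015192 and Zm00004b031581 were lowest in replicate 1 and highest in replicate 2, the opposite order to the floret lists. Zm00004b022967 and Zm00004b000584 did not show that order in A12: both were highest in replicate 1 and lowest in replicate 2. However, the exact 95% Poisson intervals of replicates 1 and 2 overlapped, so little can be read from their order. They were 27.7 to 53.3 and 20.2 to 42.8 reads for Zm00004b022967, and 43.2 to 73.9 and 24.4 to 48.7 reads for Zm00004b000584. The 3 libraries per line allow no test of such an order, and the part of floret content in the SVP-class values was not tested.

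**Figure D3:**
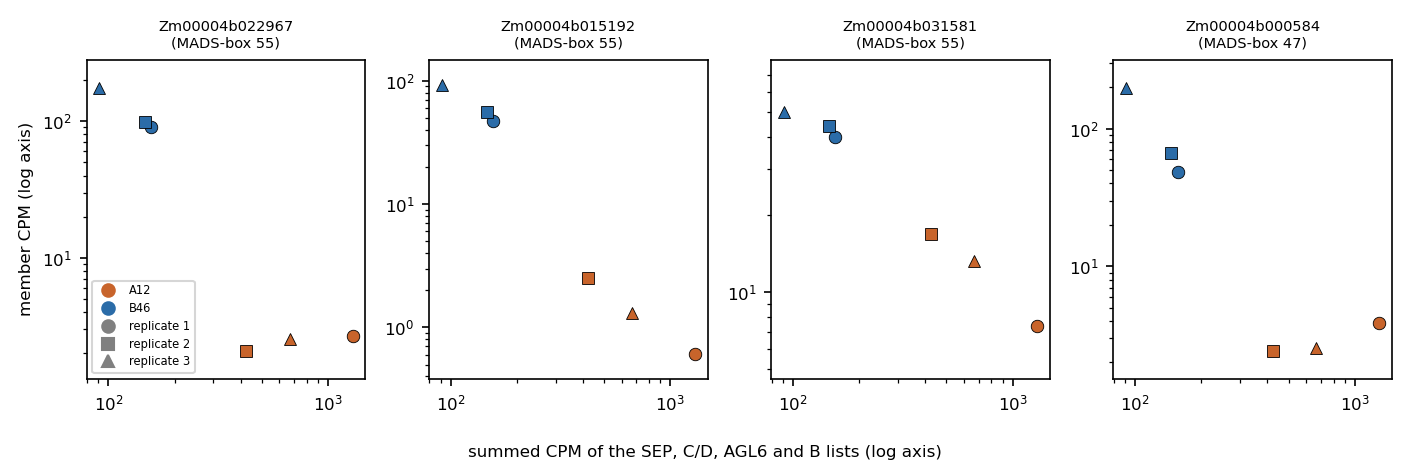
CPM of each SVP-class gene against the summed CPM of the SEP, C/D, AGL6 and B lists in the same library (both axes log), with the line given by colour and the replicate by marker shape. In B46 all 4 genes are highest where the sum is lowest, 90.8 CPM, a sum that in B46 comes mainly from MADS34 matches. In A12 only the panels of Zm00004b015192 and Zm00004b031581 show the genes lowest where the sum is highest, 1293 CPM.

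The log2 fold changes were fitted again without A12 replicate 1 and B46 replicate 3, the libraries that stood apart. They were -5.35 for Zm00004b022967, -4.78 for Zm00004b015192, -4.54 for Zm00004b000584 and -1.50 for Zm00004b031581. This alternative was chosen after seeing the data. Because each A12 library lay below every B46 library for all 4 genes, leaving out libraries could change the size but not the sign.

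Calls near the SVP-class loci went both ways. Of tested genes within 1 Mb, 16.7% were called around Zm00004b022967, 11.8% around Zm00004b015192, 6.9% around Zm00004b031581 and 6.67% around Zm00004b000584. Over all genes tested, 9.86% were called. Within 1 Mb on each side of Zm00004b022967, 4 of 24 tested genes were called, 2 lower and 2 higher in A12, and the lowest log2 fold change was -1.82. Around Zm00004b015192, 6 of 51 were called, 2 lower and 4 higher, with a lowest value of -1.37. Around Zm00004b031581, 2 of 29 were called, 1 in each direction, and around Zm00004b000584, 2 of 30, again 1 in each direction. The median log2 fold change of the neighbours was 0.09, -0.05, 0.03 and 0.06 around Zm00004b022967, Zm00004b015192, Zm00004b031581 and Zm00004b000584, beside 0.01 over all genes tested.

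The closest gene to Zm00004b000584 lies 0.254 kb away on the other strand and is annotated as transmembrane protein 131-like. It had 818, 860 and 873 reads in A12, against 871, 888 and 936 in B46, with a log2 fold change of -0.02. Beside Zm00004b015192, a ribosome production factor 2 homolog 66.0 kb away had a log2 fold change of -0.16. The gene nearest to Zm00004b031581, 4.38 kb away on the other strand and without an annotated name, had 27, 45 and 41 reads in A12, against 10, 6 and 16 in B46. Whether counting used strand is not stated in the available sources, so reads of close genes on opposite strands may not be fully separated.

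**Figure D4:**
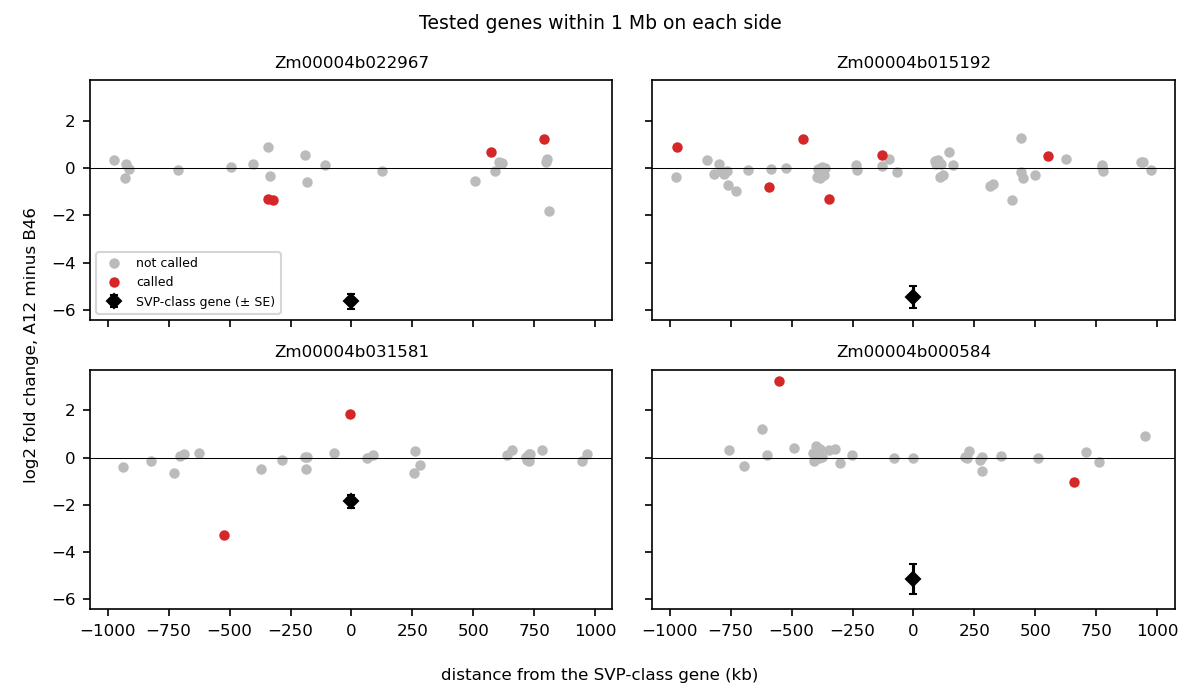
Log2 fold change (A12 minus B46) of tested genes within 1 Mb of each SVP-class gene against distance in kb, called genes in red, and the SVP-class gene itself as a black diamond with its SE. The diamonds of Zm00004b022967, Zm00004b015192 and Zm00004b000584 lie below every neighbour, while 1 neighbour of Zm00004b031581 is lower, at -3.29.

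Likeness of patterns across the 6 libraries was measured as the root mean square difference of centred log2 CPM, where 0 means identical patterns. The measure follows mainly the size of the step between A12 and B46, which was known when the SVP-class genes were chosen. Genes with a like step come out close. The prior count of 2, added before taking logs, bounds the step of a gene with almost no A12 reads, so a small difference need not mean a like fold change. Zm00004b022967 differed by 0.49 from Zm00004b000584, by 0.62 from Zm00004b015192 and by 1.87 from Zm00004b031581. The genes named next are the nearest of 14932 with an annotated match and 50 or more reads on average.

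The genes most like Zm00004b000584 were Protein G1-like4 (Zm00004b039902, difference 0.25), which belongs to the ALOG family of plant-specific DNA-binding proteins, Protein G1-like5 (Zm00004b011897, 0.41) and an ethylene-responsive factor ERF109 match (Zm00004b003366, 0.44). Zm00004b011897 had 15, 12 and 18 reads in A12, against 298, 645 and 2002 in B46, a larger step, again with B46 replicate 3 the highest. It was named for its near pattern, so this likeness is no separate observation. Another G1-like4 gene (Zm00004b014415, difference 0.36) was among the 3 nearest to Zm00004b022967, beside a KAT1 potassium channel match (Zm00004b013527, 0.35) and a transcript model matching a plasma membrane ATPase fragment (0.24). Nearest to Zm00004b015192 were a histidine kinase match (Zm00004b010988, 0.38), the KAT1 match (0.40) and an inactive receptor kinase match (Zm00004b013672, 0.54). Several of these genes were almost absent in A12. Reads in A12 replicates 1, 2 and 3 were 0, 0 and 0 for the ATPase match and 0, 1 and 1 for the KAT1 match. They were 0, 4 and 2 for the histidine kinase match, 0, 1 and 0 for the receptor kinase match and 1, 0 and 0 for the ERF109 match. The genes named here as nearest to Zm00004b022967, which lies on chromosome 4, and to Zm00004b015192 are all on chromosome 5. Nearest to Zm00004b031581 were a subunit A-2 gene of nuclear transcription factor Y (Zm00004b002884, 0.18), an AP2-like CRL5 match (Zm00004b034737, 0.21) and a GL2-interacting repressor match (Zm00004b005880, 0.22).

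Among the 91 genes of the table with a MADS-box best match or MADS domain, the SVP class (5 genes with the 1 that had no reads) made up 0.956%, 2.35% and 1.69% of the summed FPKM in A12 replicates 1, 2 and 3, against 16.3%, 19.1% and 37.7% in B46. Of these 91 genes, 5 were counted by their domain alone, 3 of them with an enzyme as best match and the others with none, and they held 0.416% to 0.505% of the sum. The sum over the 91 genes differed much less, at 1493 ± 190.1 FPKM in A12 and 1239.5 ± 107 FPKM in B46 (SD, n = 3 each). SEP-class genes, whose products form the floral organ complexes, held 21.96 ± 9.0% in A12 and 5.01 ± 0.921% in B46. The AP1/FUL class, which promotes the transition to flowering and floral meristem identity, held 27.3 ± 4.78% in A12 and 33.8 ± 2.96% in B46.

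**Figure D5:**
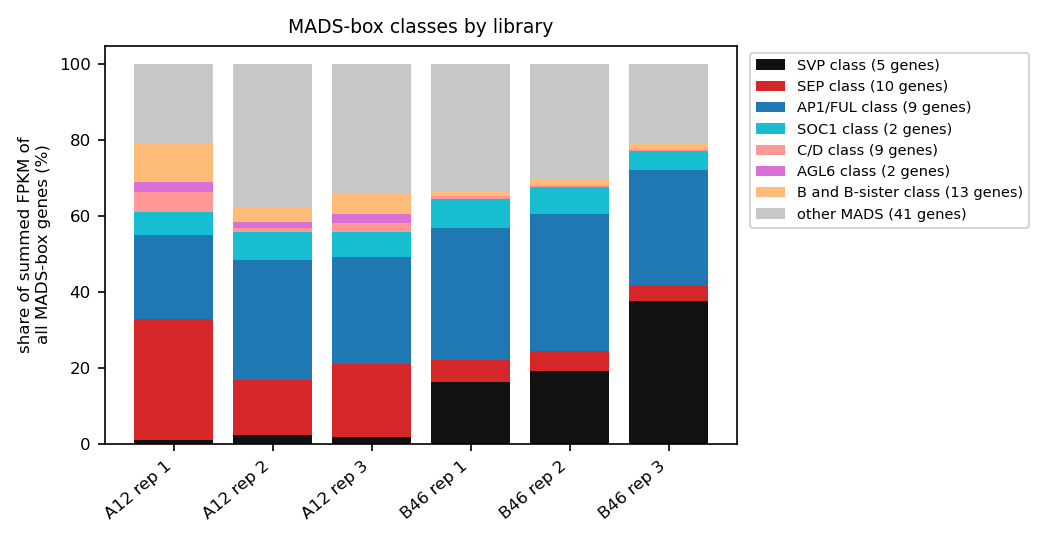
Percent of the summed FPKM of all MADS-box genes contributed by each class, per library, A12 before B46; the number of genes in each class is in the legend. The SVP class (black, at the base) takes 0.956% to 2.35% in A12 and 16.3% to 37.7% in B46.

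Other MADS-box genes were counted from annotation lists written with earlier results of these data known. In the floret lists, 16 of 19 tested genes rose in A12 and 0 fell by edgeR, where 4.61% of all genes tested rose and 5.25% fell. The median log2 fold change was 6.88 beside 0.01 over all genes tested. By list, 6 of 8 rose in the SEP list, 4 of 5 in the C/D list, 2 of 2 in the AGL6 list and 4 of 4 in the B list. MADS5 of the SEP list (Zm00004b031849) rose to 93.2 ± 9.13 CPM in A12, against 8.22 ± 4.05 CPM in B46 (SD, n = 3 each; edgeR log2 fold change 3.50, adjusted p = 0.0032). MADS16, a class B factor in rice (Zm00004b029254), had 1073, 325 and 610 reads in A12, against 5, 13 and 8 in B46 (edgeR log2 fold change 6.31, adjusted p = 0.0018). Over all MADS-box lists the called count was 17, and it was 9 without A12 replicate 3, 9 without B46 replicate 1, 7 without B46 replicate 2 and 9 without B46 replicate 3.

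The 1 MADS-box gene outside the SVP class that fell was Zm00004b038157 on chromosome 10, annotated as MADS20 and counted in the AP1/FUL list. It had 18, 51 and 37 reads in A12, against 273, 376 and 683 reads in B46 (edgeR log2 fold change -3.58, adjusted p = 0.0059), and, like Zm00004b015192, was lowest in A12 replicate 1 and highest in B46 replicate 3. Without 1 library at a time its log2 fold change lay between -3.97 and -3.13, and it stayed called. The other 6 tested AP1/FUL genes, both SOC1-class genes and the 15 tested genes of the remaining list, 1 of them counted by its domain alone, were not called. MADS56 (Zm00004b000161), the SOC1-class gene of highest FPKM, was at 90.6 ± 3.11 CPM in A12 and 78.8 ± 13.9 CPM in B46 (SD, n = 3 each; edgeR adjusted p = 0.39).

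Flowering regulators outside the MADS-box family were counted next, beside the 9.86% called over all genes. In the FT and TFL1-like list 1 of 4 tested genes rose: a match to RICE FLOWERING LOCUS T 1 (Zm00004b025155), a florigen in rice, had 237, 77 and 127 reads in A12, against 11, 20 and 15 in B46 (edgeR log2 fold change 3.32, adjusted p = 0.0082). Both LEAFY matches were not called, and Zm00004b040210 had 566, 1431 and 1339 reads in A12, against 2189, 2168 and 1496 in B46 (edgeR adjusted p = 0.20). The other match, Zm00004b006425, had 699, 1309 and 1214 reads in A12, against 2240, 2137 and 1740 in B46 (edgeR log2 fold change -0.86, adjusted p = 0.058). Without A12 replicate 1 and B46 replicate 3, Zm00004b040210 was called lower (edgeR adjusted p = 0.0005), in a fit that called 7048 genes. Of 22 flowering time regulators 1 rose, a CONSTANS-LIKE 5 match (Zm00004b007041, edgeR adjusted p = 0.017), and this call was lost without A12 replicate 3 or any 1 of the B46 libraries. GIGANTEA (Zm00004b025065), a clock-linked regulator of CONSTANS, differed by 0.01 on the log2 scale, with an SE of 0.11 (edgeR adjusted p = 0.97).

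Of 28 tested brassinosteroid genes, 4 fell and 24 were not called, where 5.25% of all genes fell, with a median log2 fold change of -0.08 beside 0.01 over all genes tested. A match to the receptor kinase BRL3 (Zm00004b021330) fell to 8.51 ± 1.09 CPM in A12, against 21.3 ± 3.84 CPM in B46 (SD, n = 3 each; edgeR log2 fold change -1.32, adjusted p = 0.0064). A match to CYP90D2, an enzyme of brassinosteroid synthesis (Zm00004b015768), fell by 0.94 (edgeR log2 fold change, adjusted p = 0.016), a call lost without A12 replicate 3 (adjusted p = 0.0696), B46 replicate 1 (adjusted p = 0.0633) or B46 replicate 2 (adjusted p = 0.0824). The others that fell were matches to shaggy-related protein kinases. These were kinase theta (Zm00004b001928, edgeR log2 fold change -0.40, adjusted p = 0.032) and GSK4 (Zm00004b013545, edgeR log2 fold change -0.49, adjusted p = 0.048). Over the flowering and brassinosteroid lists together, 6 genes were called, against 17 without A12 replicate 1, 2 without A12 replicate 3, 2 without B46 replicate 1, 2 without B46 replicate 2 and 3 without B46 replicate 3.

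Marker lists of other tissues are set beside the 9.86% called over all genes. Of 46 tested green-tissue genes 1 rose and 0 fell, and their summed CPM was 141 to 731 in A12 and 203 to 292 in B46, highest in A12 replicate 1. Of 26 vascular genes 3 rose, with summed CPM of 435 to 479 in A12 and 358 to 508 in B46. Most reads of the vascular list were of fasciclin-like matches, led by Zm00004b006565 (1614, 2468 and 2409 in A12, against 2079, 2375 and 3175 in B46). Its cellulose synthase and laccase matches had 29 reads or fewer in every library, so the sum is mainly that of the fasciclin-like genes. Of 11 anther genes, listed by tapetum, pollen or anther terms in their description, 1 rose and 1 fell. Their summed CPM was 453 to 454 in A12 and 377 to 413 in B46. Most of these reads were of matches to pollen-specific protein C13 and POLLENLESS 3-LIKE 2. The match named anther-specific (Zm00004b036556) had 3, 2 and 4 reads in A12, against 2, 2 and 11 in B46, so the sum need not reflect anther tissue. Of 9 tested KNOX genes, which mark the sampled meristem itself, 2 rose, with summed CPM of 801 to 1100 in A12 and 842 to 996 in B46. Markers at 0 reads in every library numbered 12 of 75 in the green-tissue list, 9 of 58 in the vascular list, 14 of 37 in the anther list and 3 of 17 in the KNOX list. Their part in the SVP-class values was not tested.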

How the data were processed

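RNA was measured by sequencing in 3 A12 and 3 B46 libraries. The deposited table holds the authors' read counts for each gene, not normalized, and their FPKM values (per kilobase and per library), which are the count over gene length and a constant within 0.962 and 1.02 times the library total. Per the submitters' processing notes, HISAT2 2.0.5 and DESeq2 1.20.0 were used. The counter, the build and the use of strand are, in the sources used here, not given. Gene names are the best protein match in the deposited table.

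Counts were fitted with edgeR 4.0.16 in R 4.3.3: default expression filter, TMM scaling, quasi-likelihood test, Benjamini-Hochberg adjustment over 22741 genes, calls at an adjusted p under 0.05. Fold changes are A12 minus B46. DESeq2 1.42.0 and limma 3.58.1 on log2(FPKM + 0.1) were alternatives. The SVP-class genes and all lists were chosen with earlier results of these data known. Named genes were the 4 SVP-class genes, the 3 genes nearest to each in pattern (centred log2 CPM, prior count 2), and up to 3 called genes and the gene of highest FPKM per list. KNOTTED 1, the nearest neighbouring genes and a few further list genes were added. P-values set the difference between the lines against the spread between pools within a line. With 1 line per version of the locus, they hold no spread between lines.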

Additional observations from a re-analysis of the deposited data

How the results depend on the processing

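All 4 SVP-class genes were lower in A12 in each of the 14 alternatives. This direction is no separate observation, since the genes were chosen with the contrast known and each A12 library lay below every B46 library. Only the size could vary. The log2 fold changes of the 4 genes ranged from -5.81 to -5.10 for Zm00004b022967, -6.07 to -4.67 for Zm00004b015192, -5.48 to -4.11 for Zm00004b000584 and -2.12 to -1.50 for Zm00004b031581. With limma on log2(FPKM + 1), where the larger pseudocount shrinks low values, 3 were smaller in size: -5.10 for Zm00004b022967, -4.67 for Zm00004b015192 and -4.11 for Zm00004b000584. Leaving out 1 library at a time gave -5.48 to -4.28 for Zm00004b000584. Shares of the sum and the order by level did not change with CPM per kilobase, which differs from FPKM only by a constant per library.

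Counts of called genes moved most. The whole-table count of 2242 was 3506 with DESeq2, 967 with the replicate block and 401 to 4446 without 1 library. Leaving out A12 replicate 1 and B46 replicate 3 together gave 7048 genes, 26 in the MADS-box lists (main count 17) and 22 in the flowering and brassinosteroid lists (main count 6). Without 1 library these lists gave 7 to 20 and 2 to 17. The flowering and brassinosteroid count was 11 with DESeq2 and 3 with the replicate block. The cause of these shifts was not tested. The replicate numbers share only a number: deviations of same-numbered libraries correlated at -0.12, -0.01 and 0.01 across genes. Under the block, the edgeR adjusted p of the CYP90D2 match (Zm00004b015768) was 0.0572. The log2 fold change of GIGANTEA (Zm00004b025065) turned sign without A12 replicate 2, B46 replicate 2 or B46 replicate 3, and lay between -0.074 and 0.066 without 1 library.

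Depth limits the A12 values of Zm00004b022967, Zm00004b015192 and Zm00004b000584, which rest on 9 to 57 reads a library.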
